A study of Mus musculus with 20 samples.

Results

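Mock-treated paternal pronuclei of zygotes from Tet3 conditional knockout (CKO) and wild-type (WT) females were compared by reduced representation bisulfite sequencing, which reads CpGs near MspI sites. The comparison uses 4 of the 20 libraries of the series, namely those whose titles give genotype CKO or WT, paternal origin and no aphidicolin, with 2 libraries for each genotype. The other libraries are of sperm, oocytes, maternal pronuclei and aphidicolin-treated pronuclei, and serve here as reference.

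Zygotes were made in vitro from oocytes of superovulated females of 7 to 10 weeks and sperm of adult C57BL/6J males. CKO females carried Zp3-Cre, active in growing oocytes, with one floxed and one deleted Tet3 allele (f/-), and WT females were f/f. The sperm brought an undeleted Tet3 gene in both groups, so the deletion concerns the maternal supply, and bisulfite reads of paternal DNA do not check the deletion. Zygotes were moved to KSOM medium at 5 hours after fertilisation, pronuclei were taken at 12 hours and frozen at 13 hours. The reference aphidicolin groups received 3 µg/ml of this inhibitor of replicative DNA polymerases from 5 hours. Pronuclei were told apart by their size and their distance from the second polar body, and a library typically pooled about 20 of them and needed 21 PCR cycles. Nothing in the labels says that replicates came from separate females, so the spread between them may be technical.

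Tet3 is a dioxygenase stored in the oocyte that oxidises 5-methylcytosine, chiefly in the paternal genome after fertilisation. Methylation can also fall without an enzyme, because copying DNA makes daughter strands that are unmethylated until a maintenance methyltransferase acts. Bisulfite sequencing reads 5-methylcytosine and 5-hydroxymethylcytosine alike, and reads the further oxidised forms as unmethylated.

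WT replicates 1 and 2 held 37303719 and 65480095 calls, and CKO replicates 1 and 2 held 57891812 and 68056783. At least 5 reads in all 4 libraries were found at 631070 autosomal positions, with median depths of 35 to 48 reads. Tiles with at least 2 such positions numbered 118717 at 100 bp and 79100 at 1000 bp, with median depths of 163 and 190 calls a library. The 4 libraries differed in signal of the other parent, measured at 2380 oocyte-methylated tiles that are unmethylated in sperm. That share was 0.685% and 2.09% in WT and 12.1% and 2.59% in CKO, so CKO replicate 1 stood apart. This library also had the lowest share of calls on the Y chromosome, 0.00752% against 0.0150% to 0.0186%, and the highest on the X, 1.61% against 0.900% to 1.13%. The maternal libraries used as reference for this share were not free of paternal signal either. At tiles methylated in sperm only, the CKO maternal libraries read 9.04% and 10.1% and the WT ones 3.37% and 3.90%. How far this moved the subtracted values was not tested. Class means are therefore given as measured, with the maternal share subtracted, and without this library where it matters.

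Over all shared autosomal positions, mean methylation was 14.4% and 15.9% in WT and 18.3% and 18.7% in CKO. Both CKO libraries lay above both WT libraries, by 3.41 points on average (2.44 to 4.37 over the 4 pairings). The two-sided exact permutation p was 0.33, which is the smallest that 2 libraries against 2 allow, and the same p belongs to each difference below in which the groups did not overlap. With the maternal share subtracted the difference was 3.63 points, over the 467076 positions also read in the maternal libraries.

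The difference was located in DNA that sperm brings in methylated. Tiles were sorted by gamete level, methylated meaning at least 75% and unmethylated at most 25% in both libraries of a gamete. At the 12663 tiles of 100 bp methylated in both gametes, where sperm read 96.6% in both libraries, WT paternal pronuclei were at 49.5% and 53.4% and CKO ones at 67.3% and 66.4%. The CKO mean of 66.9% ± 0.663 (SD, n = 2) exceeded the WT mean of 51.5% ± 2.75 (SD, n = 2) by 15.4 points. About the same level was left in CKO at tiles methylated in sperm only once the maternal share was removed. At those 14447 tiles the measured levels were 48.7% and 52.2% in WT and 58.2% and 64.2% in CKO, a difference of 10.7 points (5.93 to 15.5). The lower CKO value belongs to replicate 1, and without it the difference was 13.8 points. With the maternal share subtracted, CKO levels were 64.8% and 65.7% here and 65.1% and 65.9% at tiles methylated in both gametes. The corresponding differences were 14.2 points over 12102 tiles and 14.6 points over 9204 tiles.

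At tiles unmethylated in both gametes the equally weighted means overlapped. At these 61509 tiles, WT read 1.92% and 2.46% and CKO 2.30% and 2.32%, so the CKO values lay between the WT ones. The CKO minus WT difference was 0.125 points (-0.153 to 0.402, exact permutation p = 1). With tiles weighted by their reads it was 1.15 points, and the groups did not overlap (exact permutation p = 0.33). At 3272 tiles methylated in oocytes only, WT read 3.86% and 4.94% and CKO 12.03% and 5.35%. The difference of 4.29 points there was 0.946 without CKO replicate 1, and these tiles are the ones from which the maternal share was measured.

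**Figure D1:**
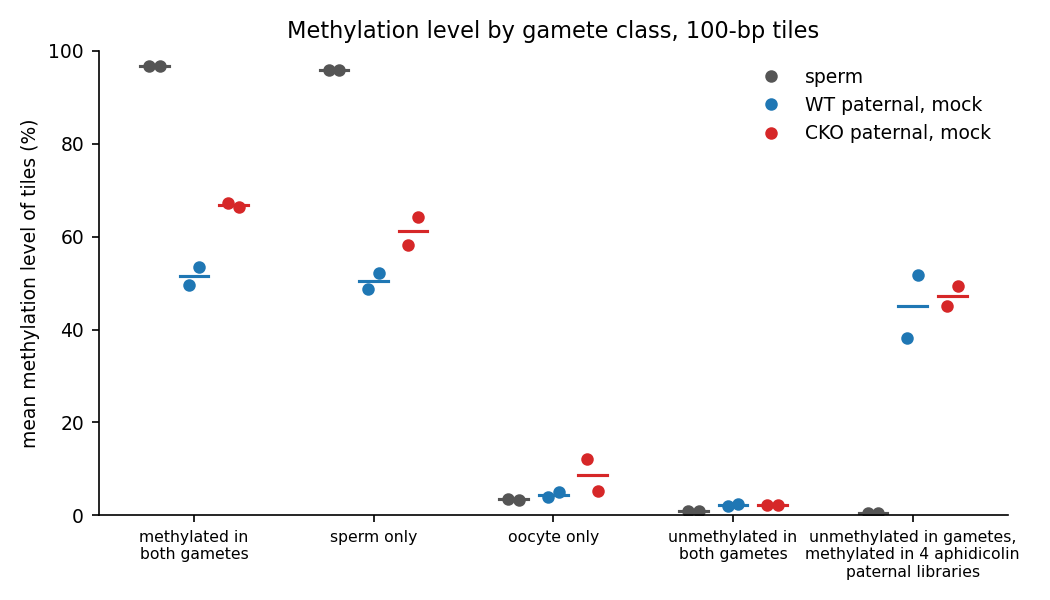
Mean methylation level (%) of 100-bp tiles in 5 classes, for sperm (grey), WT (blue) and CKO (red) mock paternal pronuclei. Each point is a library and each line the mean of 2. CKO lies above WT in the classes methylated in sperm (66.9% against 51.5% in the first), while the equally weighted means overlap at tiles unmethylated in both gametes.

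The genotype difference was also measured where replication was blocked and in the maternal pronucleus. At tiles methylated in both gametes, aphidicolin-treated paternal pronuclei were at 92.8% and 94.9% in WT and 96.5% and 96.7% in CKO, a difference of 2.75 points (1.63 to 3.87). These libraries read 6627 to 9652 of the tiles. Maternal mock pronuclei were at 80.9% and 84.7% in WT and 81.8% and 83.4% in CKO, a difference of -0.218 points. The mock paternal difference exceeded the aphidicolin one by 12.6 points and the maternal one by 15.6 points. Neither excess passed an exact permutation test of genotype labels within each condition, with two-sided p of 0.33 and 0.17 and adjusted p of 0.667 and 0.444 over 8 tests. The smallest p that test allows is 0.0556. At tiles methylated in sperm only, the aphidicolin difference was -0.556 points (-5.11 to 4.00) and the mock one exceeded it by 11.3 points (exact permutation p = 0.17, adjusted 0.444). Aphidicolin libraries read 91.5% and 93.6% there in WT and 88.5% and 95.5% in CKO. The lowest, CKO replicate 1, also read 10.8% at tiles methylated in oocytes only, against 4.59% to 5.81% in the other aphidicolin paternal libraries. No maternal share was subtracted from these libraries, and its part in the aphidicolin difference was not tested. At the tiles methylated in sperm only, maternal mock pronuclei carry little methylation and were at 3.37% and 3.90% in WT and 9.04% and 10.1% in CKO. That difference was 5.96 points (5.14 to 6.77), and the paternal mock one exceeded it by 4.78 points (exact permutation p = 0.56, adjusted 0.741).

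The CKO excess was larger in points, and smaller as a share of what WT lost, at tiles with more methylation in sperm, though not at each step. Among 1000-bp tiles at 90% to 100% in sperm (35885 tiles, sperm mean 97.0%), WT libraries were at 51.0% and 54.7% and CKO libraries at 62.9% and 65.8%. The WT loss from sperm was 44.2 points and the CKO loss 32.7 points, so the difference of 11.5 points was 26.0% of the WT loss. Among tiles at 50% to 60% in sperm (1045 tiles), levels were 29.0% and 31.7% in WT and 36.6% and 38.6% in CKO, a difference of 7.24 points, or 29.6% of the WT loss. Among tiles at 20% to 30% in sperm (1355 tiles), both WT libraries were at 14.1% and CKO libraries at 19.9% and 19.5%. That difference of 5.61 points was 52.9% of the WT loss. In the bin from 10% to 20% (2016 tiles) CKO libraries both read 13.3%, close to the sperm mean of 14.6%, and WT read 9.83% and 10.5%. Their difference of 3.12 points was 70.2% of a WT loss of 4.44 points. The decline was smaller with the maternal share subtracted, from 57.4% in that bin to 29.5% in the highest. In each of the 9 bins above 10% both CKO libraries lay above both WT libraries.

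**Figure D2:**
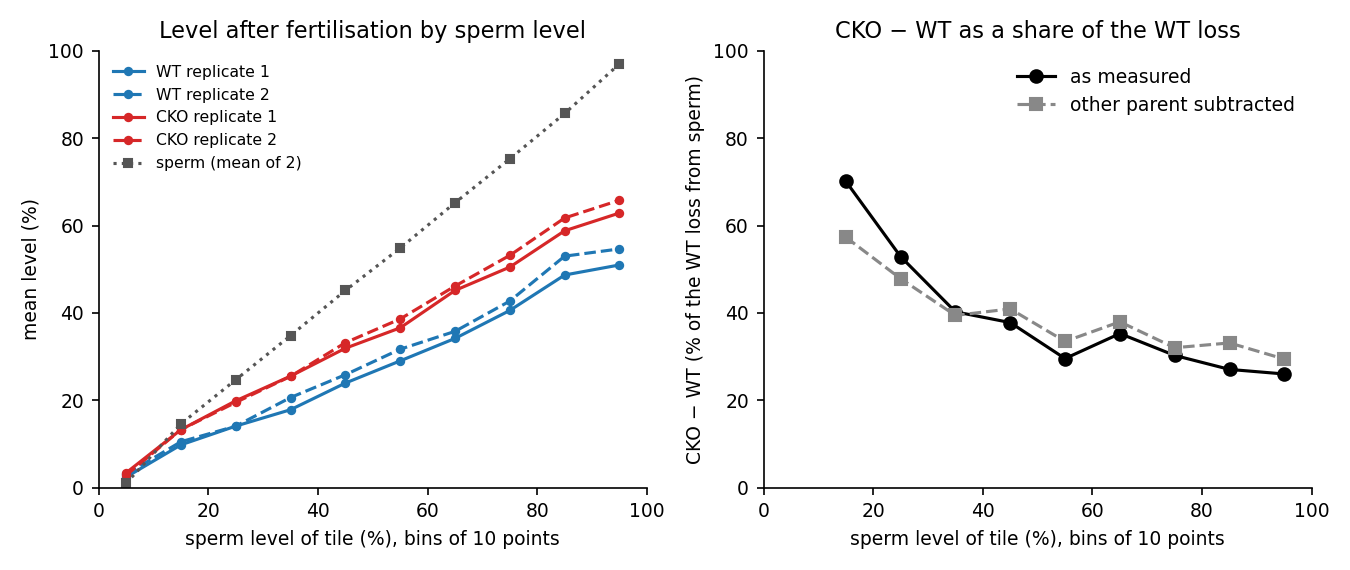
Left, mean level (%) of 1000-bp tiles in each library against the level in sperm, in bins of 10 points, with the sperm mean dotted. Right, CKO minus WT as a percent of the WT loss from sperm, as measured (black) and with the signal of the other parent subtracted (grey), from 70.2% to 26.0% as measured.

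The difference varied less with other features of sperm-methylated DNA. The 38765 tiles of 1000 bp methylated in sperm averaged 50.8% and 54.5% in WT and 62.5% and 65.4% in CKO, a difference of 11.4 points, and 12.8 points over 30127 tiles with the maternal share subtracted. Tiles with 2 CpG positions differed by 10.6 points, those with 3 to 4 by 11.7, those with 5 to 9 by 12.7 and those with 10 to 19 by 13.0. The 12 tiles with 20 or more differed by 9.02 points, with overlapping groups. Levels themselves were higher with more positions in both genotypes, from 52.2% at 2 positions to 56.1% at 10 to 19 in WT and from 62.9% to 69.1% in CKO. By depth, the tiles of the lowest quartile differed by 12.3 points and those of the highest by 11.2. By oocyte level, the measured difference was 9.62 points at tiles under 10% in oocytes, 8.15 to 11.5 points in the bins between and 14.5 points at tiles over 90%. With the maternal share subtracted these became 13.2, 10.5 to 11.2 and 13.6 points. Distance to the nearest unmethylated tile made little difference either. Sperm-methylated 100-bp tiles over 500 and up to 2000 bp away differed by 12.8 points (1186 tiles), those up to 10000 bp away by 13.7 points, and those over 50000 bp away by 10.9 points (12536 tiles).

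Tile by tile, the CKO libraries held fewer strongly demethylated tiles. Of the 38765 sperm-methylated tiles of 1000 bp, 25.6% and 14.6% were at 20% or less in the WT libraries and 6.94% and 6.49% in the CKO libraries. The CKO shares were close to each other, and both lay below the WT ones, which differed from each other by over 10 points. At the other end, 26.3% and 21.7% of tiles were at 80% or more in WT and 26.1% and 31.6% in CKO, and here the groups overlapped. Median levels were 51.1% and 56.0% in WT and 64.8% and 68.1% in CKO. The WT replicates also differed from each other at the outermost bins. In WT replicate 1, the library with the fewest calls, 21.6% of tiles lay below 5% and 19.6% at 95% or more, against 9.98% and 10.9% in WT replicate 2.

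**Figure D3:**
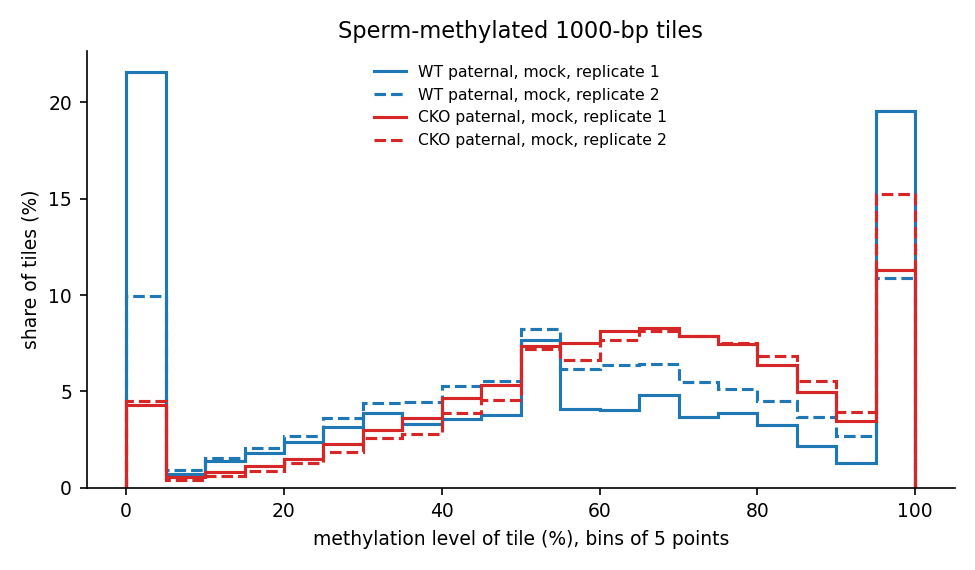
Share of the 38765 sperm-methylated 1000-bp tiles (y axis, %) in each bin of 5 points of methylation level (x axis), for the 4 libraries. Between the extremes the CKO curves (red) peak higher on the axis than the WT curves (blue), and the lowest bin holds 21.6% and 9.98% of tiles in WT against 4.31% and 4.51% in CKO.

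Single tiles varied as much between replicates as between genotypes. The SD of the tile difference was 41.1 points between the WT replicates and 33.5 points between the CKO replicates, and from 35.5 to 41.3 points over the 4 pairings of a WT with a CKO library. The mean tile difference was 3.70 and 2.93 points between replicates and 8.05 to 14.7 points over those pairings. Over all 1000-bp tiles, both CKO libraries lay above both WT libraries at 20.5%, and both below at 7.55%. At sperm-methylated tiles these shares were 27.7% (10757 tiles) and 9.38% (3636 tiles). At tiles unmethylated in both gametes they were 9.53% and 5.47%.

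Averaged over larger stretches, the higher level in CKO appeared along all autosomes. In sperm-methylated 1000-bp tiles, both CKO libraries lay above both WT libraries on 19 of 19 autosomes (100%), and the difference ran from 9.37 points on chromosome 3 to 12.9 points on chromosome 19. In windows of 1 Mb with at least 10 such tiles, the CKO mean was the higher in 1211 of 1268. Both CKO libraries lay above both WT libraries in 933 windows (73.6%) and below in 7 (0.552%). The median window differed by 11.7 points, with an SD over windows of 6.52 points. The windows of 1 library share its preparation and are no replicates of the genotype.

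**Figure D4:**
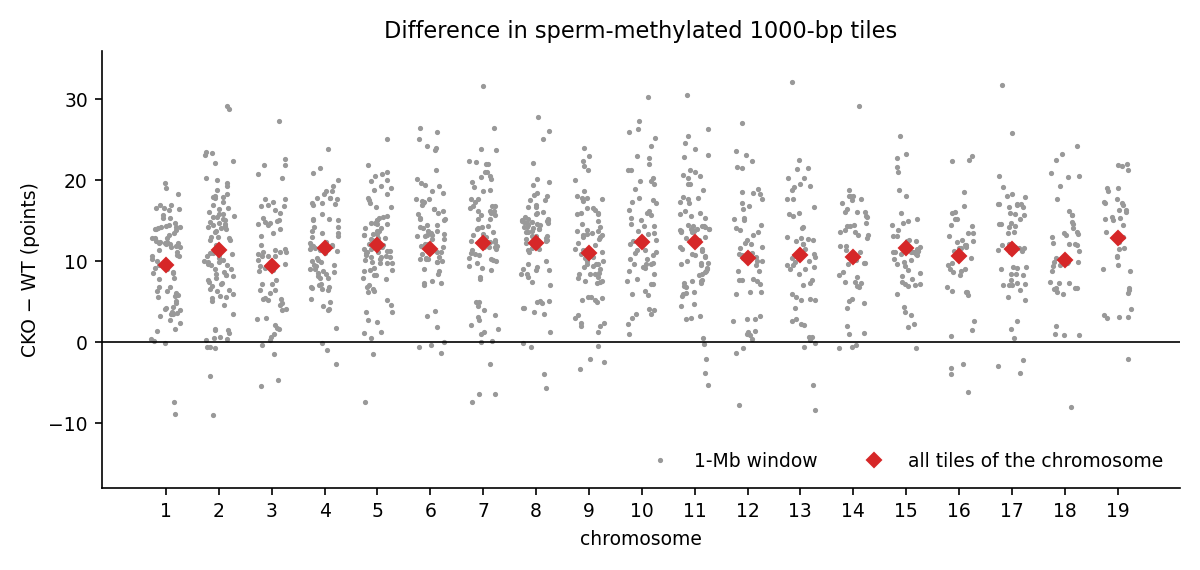
CKO minus WT (points) in sperm-methylated 1000-bp tiles by chromosome. Each grey point is a 1-Mb window (1268 in all, with a random horizontal shift) and each red diamond all tiles of a chromosome, from 9.37 to 12.9 points.

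Few single tiles passed the test across the genome, and those calls rest on a dispersion taken from a trend on depth over all tiles. By the quasi-binomial F test with Benjamini-Hochberg adjustment, 14 tiles of 1000 bp were called higher in CKO (0.0177% of those tested) and 2 lower (0.00253%). For 100-bp tiles the counts were 13 higher (0.011%) and 0 lower (0%). At an unadjusted p under 0.05 and 10 points or more, 2961 tiles of 1000 bp were higher (3.74%) and 481 lower (0.608%). Of these, 2404 of the higher and 284 of the lower ones were methylated in sperm, as were 38765 of all 79100 tiles tested. For 100-bp tiles the counts at that unadjusted p were 2105 higher (1.77%) and 349 lower (0.294%). A limma test on arcsine square roots called 320 higher and 69 lower of 118717 tiles of 100 bp, and 169 higher and 34 lower of 79100 tiles of 1000 bp. With the own dispersion of each tile in place of the trend, which 62775 tiles of 1000 bp and 64343 of 100 bp had, 0 tiles of either size were called in either direction by the F test. Residual degrees of freedom were only 1 to 4 in the named tiles, so such a test can hardly call a tile after adjustment over so many. Its 0 calls therefore do not decide whether single tiles differ. At an unadjusted p under 0.05 and 10 points or more that test gave 1375 higher and 297 lower tiles of 1000 bp, and 1024 higher and 245 lower of 100 bp. Every adjusted p below therefore holds for the trended dispersion alone, and with its own dispersion each named tile had an adjusted p of 0.937. Of the called 1000-bp tiles, 8 higher and 1 lower had over 10 times the median depth, against 2375 of all 79100 tested. All 13 called 100-bp tiles were as deep, against 128 of all 118717 tested.

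Of the 6 higher tiles of ordinary depth, 5 were highly methylated in sperm, at 81.1% or more, and at 33.8% or less in both WT libraries. Positions are of the mm9 build, an annotation of which was not used here. The tile chr15:95917001-95918000 (8 positions) read 0% and 8.12% in WT and 97.5% and 76.9% in CKO, on 122 to 889 calls a library (adjusted p = 0.0168, quasi-binomial F test). Oocytes read 85.8% and 91.8% at this tile and the maternal mock libraries 68.0% to 96.9%. At chr9:117784001-117785000, methylated in sperm (96.8% and 99.3%) and not in oocytes, WT read 0% in both libraries and CKO 76.1% and 87.6% (adjusted p = 0.00306, same F test with limma). Its maternal mock libraries read 1.43% to 16.6% where covered, far below CKO.

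The other 3 of this kind were, as the tile on chromosome 15 was, partly or fully methylated in oocytes. At chr9:22165001-22166000, WT read 0% and 0.418% and CKO 73.8% and 70.1% (adjusted p = 0.00577, F test with limma). At chr6:100449001-100450000, WT read 27.9% and 24.6% and CKO 100% and 99.8% (adjusted p = 0.0191, F test with limma). At chr6:83142001-83143000, WT read 13.4% and 33.8% and CKO 86.9% and 82.1% (adjusted p = 0.0321, F test with limma). Oocytes read 49.1% and 74.8% at the second of these and 96.2% or more at the others. Maternal mock libraries read 93.7% to 100% at the first, 0% to 52.6% at the second and 82.8% to 96.2% at the third. How far signal of the other parent added to the CKO values was not tested. Groups that did not overlap were a condition for naming these tiles. Their separation is therefore no further evidence of a difference. The sixth tile, chr9:54997001-54998000, went another way: it was under 1% in both gametes, 0% in both WT libraries and 35.8% and 1.13% in CKO. Its maternal mock libraries read 34.5% to 81.1%, and without CKO replicate 1 its difference was 1.13 points.

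The lower tile of ordinary depth lay at the promoter of Fgf22, which encodes a fibroblast growth factor known for its role in synapse formation. All 14 positions of chr10:79217001-79218000 that were read fell in the matched RefSeq promoter window of this gene, at chr10:79217604-79217903 on the plus strand of mm9. WT libraries read 61.7% and 28.1% there and CKO libraries 3.47% and 1.24%, on 779 to 1288 calls (adjusted p = 0.0235, quasi-binomial F test). Sperm read 0% and 0.168%, and the paternal aphidicolin libraries that covered it read 0%, so among paternal libraries levels over 4% were found in the 2 WT mock ones alone. Its sequence is shown because it is the called tile of ordinary depth that was lower in CKO, with the CpGs read in all 4 libraries in capitals (RefSeq, GRCm38.p6 table).
Fgf22: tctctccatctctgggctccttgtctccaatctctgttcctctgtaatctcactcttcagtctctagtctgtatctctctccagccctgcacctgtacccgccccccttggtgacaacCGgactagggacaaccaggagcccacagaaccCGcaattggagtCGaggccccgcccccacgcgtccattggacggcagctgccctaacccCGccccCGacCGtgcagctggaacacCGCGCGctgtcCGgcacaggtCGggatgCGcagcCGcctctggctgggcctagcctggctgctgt

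Each of these 7 tiles of ordinary depth lost its call without at least 1 of the 4 libraries. Without WT replicate 1, CKO replicate 1 or CKO replicate 2, 6, 7 and 6 tiles of 1000 bp were called higher, against 14 with all libraries, and 0 lower. The differences of the named tiles kept their sign, from 50.8 to 93.5 points in the 5 sperm-methylated tiles and from -59.4 to -25.8 at the Fgf22 tile. With all 4 libraries but without the tiles of over 10 times the median depth, 2 tiles of 1000 bp were called higher and 0 lower. Most of the higher tiles named above and the Fgf22 tile thus lost their call in that run.

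The 3 deepest called 1000-bp tiles, which were not called with their own dispersion, lay in a stretch of extreme depth on chromosome 17. With 1 of the 4 libraries left out, their differences were 9.83 to 12.8 points. The lowest was under the 10 points that a call needs, at the tile starting at chr17:39981001 without CKO replicate 2. All the others were at 10.0 points or more. Without WT replicate 2, however, 0 tiles of 100 bp were called higher. All 13 called 100-bp tiles and 5 of the 14 called 1000-bp tiles fell in chr17:39979001-39986000, where 501 positions took 3.09% to 3.38% of all calls of a library. Such depth is typical of repeated sequence whose copies map to 1 place, and as background the rRNA precursor copy Rn45s of the reference lies in this part of the chromosome, though this was not checked here against an annotation of that build. The mean level over the stretch was 10.0% and 8.90% in WT and 19.1% and 19.9% in CKO. Sperm read 14.0% and 19.7%, so CKO lay near the sperm values and WT below them. Both CKO libraries lay above both WT libraries at 427 of the 501 positions, against 7.1% of all autosomal positions, and below at 10, against 3.13%. The stretch was chosen as the run of adjoining deep tiles that held the most called tiles. These counts therefore follow in part from that choice and are no separate evidence, and positions of 1 library are no replicates of the genotype.

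In the deepest tile, chr17:39982001-39983000 with 138 positions, WT read 6.84% and 5.80% and CKO 16.8% and 17.1%, on 280528 to 563083 calls. The difference was 10.6 points, with SDs of 0.729 and 0.214 in the mock groups. The aphidicolin replicates of this tile lay farther apart, at 18.6% and 12.3% in WT and 20.6% and 13.6% in CKO. Its own dispersion over the 8 paternal pronuclear libraries was 2542 times that of binomial counting, and with it the unadjusted p of the F test was 0.0104 (adjusted p = 0.937). The tile chr17:39985001-39986000 read 10.3% and 9.94% in WT and 21.2% and 22.9% in CKO, and chr17:39981001-39982000 read 8.14% and 6.87% against 17.3% and 18.9%. The stretch differed between other libraries as well. Aphidicolin-treated paternal pronuclei read 20.6% and 15.7% in WT and 21.2% and 16.6% in CKO, and maternal mock pronuclei 16.0% and 13.6% in WT and 11.0% and 16.0% in CKO. Neither of these pairs of groups was separated.

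**Figure D5:**
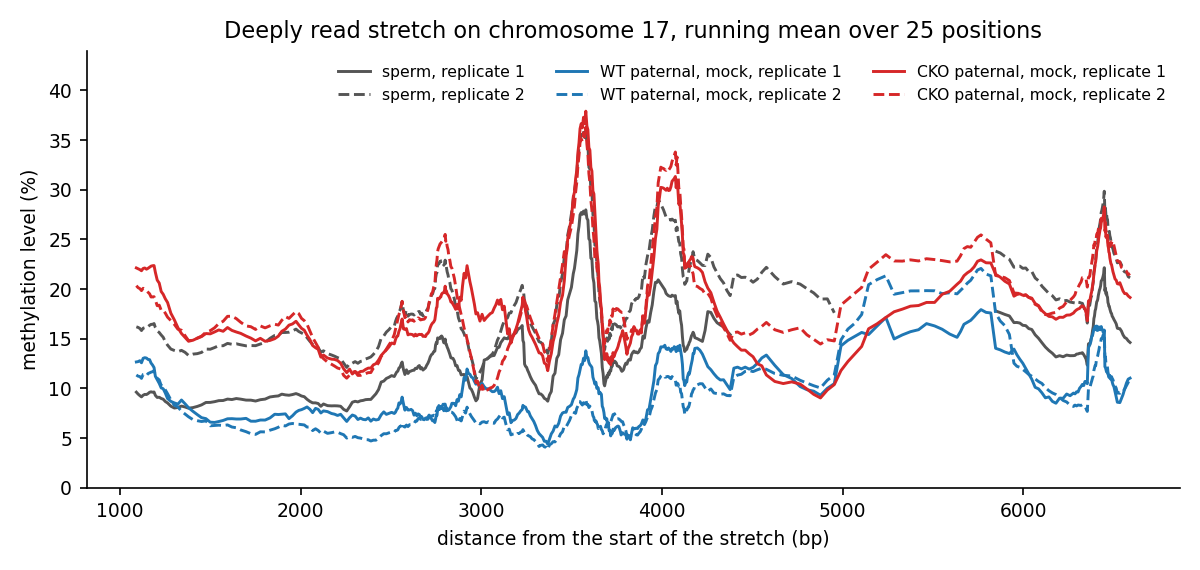
Methylation level (%) along the deeply read stretch of chromosome 17, as a running mean over 25 positions, against distance from its start. Both CKO libraries (red) run above both WT libraries (blue) over most of the stretch, with means of 19.1% and 19.9% against 10.0% and 8.90%, while the sperm libraries (grey) read 14.0% and 19.7%.

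Of the other 4 deep called tiles, 3 were higher in CKO, at chr5:147072001-147073000 (11.0% and 8.49% in WT, 19.2% and 23.1% in CKO), chr11:3093001-3094000 (66.5% and 70.5%, 77.2% and 80.5%) and chr3:5860001-5861000 (17.9% and 13.6%, 20.7% and 35.5%). The lower one, chr1:53841001-53842000, was under 1% in sperm and read 39.6% and 30.7% in WT against 9.32% and 9.50% in CKO. Depth in these tiles was 15.5 to 334 times the median.

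Promoter windows had low levels in both genotypes, and nearly all of those read were unmethylated in sperm. Levels were obtained at 4665 autosomal promoter windows of 4273 genes, and 4645 of the windows were at 10% or less in both sperm libraries. The mean promoter level was 1.30% and 1.68% in WT and 1.49% and 1.43% in CKO, and 4248 windows were at 10% or less in all 4 libraries. Both CKO libraries lay above both WT libraries at 287 windows (6.15%) and below at 204 (4.37%).

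Only 7 windows were at 50% or more in both sperm libraries, and their means were 40.8% and 57.8% in WT and 60.5% and 66.0% in CKO. Among them, the window of Gm38675, a predicted gene, was the one in which the groups did not overlap. It read 25.3% and 33.0% in WT and 68.5% and 61.0% in CKO, from 96.3% and 93.9% in sperm, over 6 positions. The promoter of Acta1, the skeletal muscle alpha actin gene, was at 93.1% and 93.6% in sperm, 6.86% and 41.8% in WT and 59.5% and 23.9% in CKO, so its groups overlapped. The promoter of Bak1, a pore-forming regulator of apoptosis, was at 84.9% and 71.7% in WT and 69.4% and 97.9% in CKO. Overlapping windows of Tmem267 and 3110070M22Rik were at 62.9% to 66.2% in WT and 59.5% to 68.1% in CKO, against 73.3% to 73.9% in sperm. Replicates of both genotypes differed widely at Gm31129 (5.42% and 82.0% in WT, 27.9% and 97.4% in CKO). At Vmn2r29, a vomeronasal receptor gene, WT read 31.4% and 49.6% and CKO 78.3% and 45.9%. Gm38675 was chosen here after its values were seen, and its window at chr5:145019100-145019399 (mm9, plus strand) is shown with the CpGs read in all 4 libraries in capitals (RefSeq, GRCm38.p6 table).
Gm38675: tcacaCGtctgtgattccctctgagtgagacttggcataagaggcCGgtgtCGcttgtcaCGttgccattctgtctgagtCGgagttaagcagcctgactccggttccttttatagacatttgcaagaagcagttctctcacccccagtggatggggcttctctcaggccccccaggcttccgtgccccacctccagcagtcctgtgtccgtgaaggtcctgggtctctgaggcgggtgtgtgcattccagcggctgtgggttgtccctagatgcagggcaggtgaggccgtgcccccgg

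The last class was of DNA that gains methylation after fertilisation, chosen without the mock libraries. At 112 tiles of 100 bp at 5% or less in all gamete libraries and 25% or more in all 4 paternal aphidicolin libraries, WT mock libraries read 38.3% and 51.7% and CKO ones 45.0% and 49.4%. The CKO values lay between the WT values, and the difference was 2.25 points (-6.63 to 11.1, exact permutation p = 1). Both CKO libraries lay above both WT libraries at 20 of these tiles and below at 17, that is 17.9% and 15.2%, against 12.5% and 4.77% of all 100-bp tiles. Maternal mock libraries were at 1.57% to 5.11% at these tiles. With the maternal share subtracted the difference was 5.41 points over 98 tiles, again with overlapping groups.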

How the data were processed

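The deposited files list, for each CpG cytosine and strand, a methylated and an unmethylated call count and a percent. The tools named in the submitters' processing notes are Trim Galore and Bismark 0.10.1, and the build is mm9. The percent the authors deposited matched the counts in each row, so only the counts were used. Removal of duplicate reads is not given in the sources used here, so calls may be PCR copies of few molecules and the calls behind a value bound its counting error only.

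Level means weight positions or tiles equally and were compared by two-sided exact permutation. Tiles were tested with a quasi-binomial model over the 8 paternal pronuclear libraries. Pearson dispersions from groups expecting at least 5 calls of both kinds were shrunk towards a trend on depth with limma 3.58.1 squeezeVar and floored at 1, with an F test and Benjamini-Hochberg adjustment. The shrinkage gave each tile the dispersion of the trend, whatever its own. Calls needed an adjusted p below 0.05 and a difference of at least 10 points.

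The share of the other parent was (x − s)/(m − s) at tiles methylated in oocytes only, with x, s and m the level in the library, in sperm and in mock maternal libraries of that genotype. For each class, bin or set of positions, this share of the mean maternal level was subtracted from the mean of the library. The rest was scaled up to the share left. The maternal libraries were used as they are, although the CKO ones read 9.04% and 10.1% at tiles methylated in sperm only, against 3.37% and 3.90% in WT.

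Named tiles were called 1000-bp tiles with groups that did not overlap, the first 10 higher and 5 lower by difference, and the 3 deepest called tiles of over 10 times the median depth. For 100-bp tiles the rule was 5 higher and 3 lower, and no tile met it. RefSeq promoter windows of GRCm38.p6, from 250 bases before to 50 after a start, were placed on the mm9 positions by CpG spacing, with at least 12 matched positions, none extra and a lead of 6 over the next place. Of 32851 windows, 5452 were placed, all on the chromosome the table gives. This step was added after the data were seen. The libraries, classes and tests were chosen with earlier results of these data known. Python 3.11.15, numpy 2.4.6 and pandas 2.3.3 were used.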

Additional observations from a re-analysis of the deposited data

Results flagged for a closer look

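At 100-bp tiles methylated in oocytes only, the CKO minus WT difference had opposite signs in the parental pronuclei. Each of the 4 pairings of a CKO with a WT library was positive in paternal mock pronuclei (mean 4.29 points, from 0.404 to 8.17) and negative in maternal mock pronuclei (mean -5.60 points, from -8.88 to -2.31). The difference of the differences was 9.89 points, with a two-sided exact permutation p of 0.0556, the lower limit for 36 arrangements, and 0.444 after Benjamini-Hochberg adjustment over 8 such tests. Without CKO replicate 1, the library with the largest signal of the other parent (12.1%), the paternal difference was 0.946 points. In the maternal libraries, tiles methylated in sperm only read 9.04% and 10.1% in CKO and 3.37% and 3.90% in WT, 5.96 points more in CKO (5.14 to 6.77). The part of these signals in the opposite signs was not tested.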

How the results depend on the processing

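The differences at all positions, at tiles methylated in both gametes, in sperm only and in oocytes only, and at sperm-methylated 1000-bp tiles stayed positive under each alternative run. Leaving out 1 library gave 2.66 to 4.15 points, 13.4 to 17.3, 7.72 to 13.8, 0.946 to 7.63 and 9.51 to 13.2 points in that order. Without WT replicate 1, the difference turned to -0.143 points at tiles unmethylated in both gametes (up to 0.393 without another library, and 1.15 with tiles weighted by reads) and to -4.46 at the 112 tiles methylated under aphidicolin (up to 8.96). Subtraction of the other parent gives no value at oocyte-only tiles, which set the share.

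Counts of calls depended on the settings, and with the own dispersion of each tile in place of the trend, an alternative chosen after seeing the data, all 4 counts were 0. That alternative has few residual degrees of freedom, so it can hardly call a tile after adjustment. For 100-bp tiles, the 13 higher and 0 lower calls became 320 and 69 with limma on arcsine square roots, 1 and 0 at 20 points or more, and 0 and 0 without tiles of over 10 times the median depth, while both the 4 compared libraries alone and the fit with sperm gave 1 lower tile. For 1000-bp tiles, the 14 higher and 2 lower calls became 169 and 34 with limma, 76 and 4 with sperm in the fit, 2 and 0 without the deep tiles, and at 20 points or more 5 were higher. Leaving out 1 library gave 0 to 10 higher 100-bp tiles, 6 to 12 higher 1000-bp tiles and 0 to 2 lower ones, with 0 higher 100-bp tiles without WT replicate 2. Apart from the arithmetic of fewer tiles or libraries, the cause was not tested.

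The replicate numbers are shared between groups, but the labels do not say that a number marks a common source, so they were not taken as pairs. With the replicate block, 6 tiles of 1000 bp were called higher and 0 lower, and 17 of 100 bp higher. The mean at all positions, 3.41 points, had an exact p of 0.5, the smallest the block allows. The called tiles of ordinary depth had adjusted p values of 0.139 to 1 with the block (quasi-binomial F test), and the 3 deepest stayed called with the block, though not with their own dispersion. The median dispersion used for 1000-bp tiles was 47.2 times that of binomial counting, so the spread between libraries far exceeded counting error. It changed little with depth, from 48.0 to 56.8 over the named tiles with the lowest value in the deepest. The number of calls therefore still weighed in the F test, and deep tiles reached small p values more easily.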
